A study of Mus musculus with 39 samples.

Results

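The transcriptome of unstressed MIN6 β cells was described from the 15 libraries of the series that received no secretagogue or ER stressor, out of 39 in all. They were chosen by their labels alone, as every library of cells given DMSO vehicle and every 0 h library. The 12 vehicle libraries came from cells given 0.1% DMSO for 1, 2, 6 or 24 h (n = 3 at each time) and the 3 baseline libraries from cells with no addition. All groups were wild-type MIN6 cells kept in medium with 25 mM glucose and 10% FBS. The study treated the same cells with SW016789, a small molecule that provokes insulin hypersecretion, or thapsigargin, which blocks the Ca2+ pump of the endoplasmic reticulum (ER), and those libraries were not used in the comparisons here. There were 3 independent experiments, each giving 1 library per group, and additions were staggered so that all cells of an experiment were collected together. The baseline and DMSO libraries therefore do not differ in time of collection. They differ in whether DMSO was added, and the DMSO groups differ in the time since then. The vehicle itself and the act of adding it cannot be told apart in this design.

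MIN6 is a line from an insulinoma of mice that carried the SV40 large T antigen under the insulin promoter, so it is a proliferating tumor line and a model of β cells, not a sample of islets. A β cell makes proinsulin on the rough ER, folds it with the help of chaperones and disulfide isomerases, cuts it to insulin with prohormone convertases and carboxypeptidase E, and stores it with zinc and granins in dense-core granules. Glucose entry and metabolism close ATP-sensitive K+ channels, which opens voltage-gated Ca2+ channels and releases the granules. Transcription factors such as Pdx1, Neurod1, Mafa and Nkx6-1 hold the insulin genes and this machinery active, while a set of genes found in most tissues is kept low in mature β cells.

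Ins1 and Iapp are 2 of the hormone genes on which the results below turn, and Nr4a1 and Nr4a2 are the genes of lowest p between vehicle times once the experiment is a block. Their promoter sequences are shown so that the elements named beside the results can be read. Each line gives 250 bases upstream of the annotated start, 5′ to 3′ on the strand of the gene, from RefSeq (assembly GRCm38.p6). In Ins1 (chr19:52264047-52264296, plus strand) and Iapp (chr6:142298175-142298424, plus strand) the capitals mark the A box core TAAT (reverse ATTA), which homeodomain factors such as Pdx1 bind, and the E box CATCTG (reverse CAGATG), which Neurod1 dimers bind. In Nr4a1 (chr15:101266596-101266845, plus strand) and Nr4a2 (chr2:57124004-57124253, minus strand) they mark TGACG (reverse CGTCA), the core of the cAMP response element.
Ins1: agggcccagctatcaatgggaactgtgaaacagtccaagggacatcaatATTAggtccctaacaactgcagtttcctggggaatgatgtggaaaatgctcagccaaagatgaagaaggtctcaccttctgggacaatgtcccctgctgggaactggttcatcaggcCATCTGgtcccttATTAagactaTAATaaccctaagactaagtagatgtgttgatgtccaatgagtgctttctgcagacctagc
Iapp: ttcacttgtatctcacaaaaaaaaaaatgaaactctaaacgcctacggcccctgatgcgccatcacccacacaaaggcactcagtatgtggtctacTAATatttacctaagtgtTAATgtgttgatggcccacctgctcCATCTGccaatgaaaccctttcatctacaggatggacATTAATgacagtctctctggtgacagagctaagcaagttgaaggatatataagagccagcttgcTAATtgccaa
Nr4a1: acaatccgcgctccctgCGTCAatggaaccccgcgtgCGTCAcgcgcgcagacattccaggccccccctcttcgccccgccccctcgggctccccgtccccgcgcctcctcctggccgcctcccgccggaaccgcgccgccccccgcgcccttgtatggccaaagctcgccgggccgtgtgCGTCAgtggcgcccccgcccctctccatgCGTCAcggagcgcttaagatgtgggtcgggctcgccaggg
Nr4a2: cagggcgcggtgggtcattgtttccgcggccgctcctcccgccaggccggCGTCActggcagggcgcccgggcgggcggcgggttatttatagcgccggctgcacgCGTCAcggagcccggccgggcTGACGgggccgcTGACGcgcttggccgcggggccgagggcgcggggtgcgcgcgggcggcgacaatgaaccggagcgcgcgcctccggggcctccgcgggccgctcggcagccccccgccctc

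The Ins1 window held 1 E box, starting 84 bases upstream of the start site, and 3 A box cores at 201, 71 and 61 bases. The Iapp window also held 1 E box, with 5 A box cores at 154, 136, 74, 72 and 10 bases, of which the pair at 74 and 72 overlap. Of all 32841 promoter windows of this length 14.4% held an E box of these letters and 17.3% held 3 or more A box cores. The Nr4a1 window held 4 copies of the cAMP response element core, at 233, 213, 69 and 40 bases, and the Nr4a2 window also held 4, the farthest at 200 bases. Among all windows 17.8% held at least 1 copy and 0.137% (45 windows) held 4 or more. The full element TGACGTCA, found in 1.55% of windows, was in neither. These matches describe letters in a fixed window and not binding.

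Depth was 23629041 to 41117063 counts on genes per library (median 36023921), and the 3 DMSO 2 h libraries were the shallowest of the DMSO groups, at 23629041 to 26905748. Replicates are repeat experiments on 1 cell line, and the tests can only measure how far those experiments spread. Several libraries stood apart. Baseline replicate 1, DMSO 1 h replicate 1 and DMSO 2 h replicate 1 had 11.1%, 14.7% and 17.04% of their high-quality reads in intergenic regions, against 6.48% to 7.55% in the other 12, and all 3 belong to experiment 1. DMSO 2 h replicate 2 had reads on 12757 genes, against 14542 to 21351 in the others. In that library 179 of the 11079 genes with a median of at least 5 CPM (counts scaled to the library total) in the other libraries were under 0.25 times that median, and 76 of these had no read, against 0 to 4 genes so low in any other library. DMSO 24 h replicate 2 had an intronic share of 16.1%, against 21.6% to 27.9% in the others. Some results that rest on these libraries are given with and without them.

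Insulin and islet amyloid polypeptide were the most abundant messages of MIN6 cells. Levels between genes are compared here per length, in TPM (transcripts scaled to the library total) computed from the counts and the exon length of each gene. Ins2, the mouse gene for insulin that has a human counterpart, had 46550, 49780 and 67280 TPM (lowest, median and highest) in the 12 DMSO libraries, against 47810, 55170 and 49540 TPM in the 3 baseline libraries. Iapp, which encodes the peptide cosecreted with insulin, had 40780, 44530 and 46610 TPM in DMSO, against 41880, 46540 and 42820 TPM at baseline. Both genes overlapped fully between the groups. Ins2 exceeded Iapp in 15 of 15 libraries, and averaged 51760 ± 5766 TPM against 43820 ± 2076 TPM (SD, n = 15). Ins1, the rodent insulin gene that arose by retroposition, averaged 8420 ± 1204 TPM, with 7212, 8193 and 11410 TPM in DMSO and 7273, 9260 and 7865 TPM at baseline. Igf2, a growth factor gene next to Ins2 that is imprinted and raised in many insulinomas, averaged 10600 ± 654 TPM. Ins2 lies at chr7:142678656-142679708 and Igf2 at chr7:142650768-142661035 (mm10, both on the minus strand), and these intervals do not overlap. Ins1 lies at chr19:52264323-52265458 and Iapp at chr6:142298425-142303819. The insulin genes share stretches of sequence, and only uniquely mapped read pairs were counted, so the split between them is less certain than their sum.

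**Figure D1:**
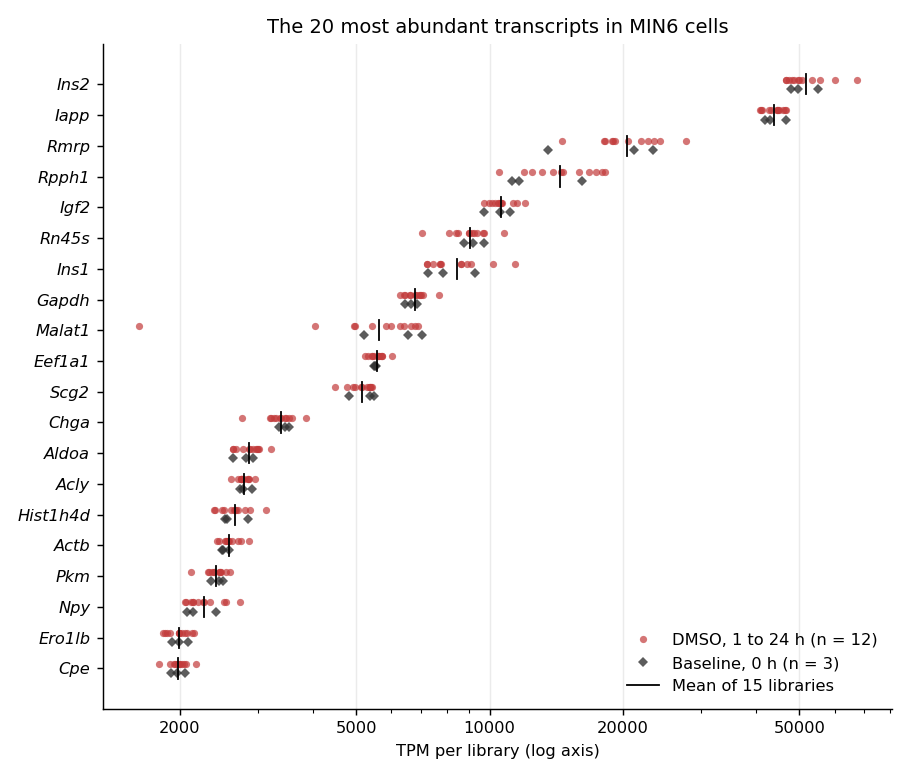
Level of the 20 genes with the highest mean TPM (x axis, log scale) in each library, with DMSO libraries as red circles (n = 12), baseline libraries as grey diamonds (n = 3) and a line at the mean of all 15. In every gene shown the baseline libraries lie among the DMSO libraries or next to them, and Malat1 in DMSO 24 h replicate 2 (1616 TPM) is the point farthest from its own gene's mean.

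Noncoding RNAs and housekeeping messages filled the rest of the top of the list. Rmrp and Rpph1, the RNA parts of RNase MRP and RNase P, averaged 20450 ± 3707 and 14420 ± 2556 TPM. They are 275 and 325 bases long, and such short RNAs are measured least reliably per length. Rn45s, the ribosomal RNA precursor, averaged 9028 ± 846 TPM. Malat1, a nuclear noncoding RNA, averaged 5637 ± 1405 TPM, and its level in DMSO 24 h replicate 2 was 1616 TPM, against 4032 to 7028 TPM in the other libraries. Neat1, another nuclear RNA, was low in the same library (19.2 TPM, against 95.6 to 251 TPM), which also had the lowest intronic share. Their part in its other values was not tested. Gapdh (6767 ± 354 TPM), Eef1a1, an elongation factor (5560 ± 190 TPM), Aldoa (2865 ± 169 TPM) and Actb (2581 ± 116.1 TPM) came from the housekeeping set. Acly, which supplies cytosolic acetyl-CoA for lipid synthesis, reached 2784 ± 85.6 TPM. Of neighbors in the order, Ins2 to Rpph1 kept their places in all 15 libraries, Igf2 exceeded Rn45s in 14 and Rn45s exceeded Ins1 in 11. Malat1 and Eef1a1 (9 of 15), Hist1h4d and Actb (10 of 15), and Ero1lb and Cpe (9 of 15) did not differ beyond their spread. When genes were ranked by CPM, with no length correction, 15 of the 20 genes were shared.

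MIN6 cells expressed 13807 genes at a mean of 1 TPM or more, and 11766 of them reached 1 TPM in every library. The mass of message was concentrated. The 10 most abundant genes held 17.65% of all TPM, the 20 most abundant 20.45%, and 694 genes held 50%. Only 62 genes averaged 1000 TPM or more and 1900 averaged 100 TPM or more. Of 24421 gene symbols, 1452 had no read in the 15 libraries, where 3 counts over all of them would correspond to 0.00595 CPM.

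Genes of the secretory granule were abundant. Of 14 granins and other granule cargo genes 13 averaged at least 1 TPM and 12 at least 100 TPM. Scg2, Chga and Chgb, granins that help to form dense-core granules, averaged 5151 ± 299, 3377 ± 237 and 1191 ± 95.8 TPM. Chga had 2758, 3366 and 3846 TPM in DMSO, against 3340, 3447 and 3517 TPM at baseline, and the groups overlapped. Messages of peptides better known from neurons were also high: Npy, neuropeptide Y, averaged 2267 ± 203 TPM and Cck, cholecystokinin, 839.7 ± 114.3 TPM. Ucn3, a marker of mature β cells, averaged 157 ± 19.2 TPM. Adcyap1, the PACAP precursor, was at 0.107 TPM.

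All 9 prohormone processing genes passed 1 TPM. Cpe (carboxypeptidase E) averaged 1984 ± 87.6 TPM, Pcsk2 and Pcsk1 (the convertases that cut proinsulin) 1674 ± 39.7 and 479.7 ± 17.6 TPM, and Pam, which amidates peptides, 355 ± 16.2 TPM. Pcsk2 had 1618, 1673 and 1757 TPM in DMSO, against 1645, 1690 and 1658 TPM at baseline, a narrow range in both groups. Among 21 genes of the granule membrane and of exocytosis 20 passed 1 TPM, led by the zinc transporter Slc30a8 (1144 ± 40.8 TPM), Ptprn (745 ± 59.2 TPM), and the SNARE genes Vamp2 (384 ± 17.1 TPM) and Snap25 (328 ± 25.5 TPM). The exception was Cadps2, at 0.200 TPM, while its paralog Cadps, which primes granules, averaged 85.8 ± 3.50 TPM.

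Genes of the ER were also abundant. Each of 20 ER folding genes averaged at least 100 TPM, as did 19 of 23 genes for entry into the ER. Ero1lb, the oxidase that recharges disulfide isomerases and is enriched in β cells, led with 1990 ± 100.5 TPM, about as much as Cpe. The chaperones Hsp90b1 (GRP94), Hspa5 (BiP) and Calr averaged 1609 ± 66.5, 1441 ± 72.1 and 1414 ± 58.8 TPM, and the disulfide isomerase P4hb 1400 ± 54.7 TPM. Hspa5 had 1289, 1453 and 1562 TPM in DMSO, against 1420, 1466 and 1396 TPM at baseline. The translocon gene Sec61a1 averaged 448 ± 28.9 TPM, Tram1 556 ± 26.97 TPM and Ssr2 528 ± 24.2 TPM. Srp54a, at 2.85 TPM, has near-identical copies, so its value is uncertain. All 18 genes of the unfolded protein response branches were detected above 1 TPM at rest. Xbp1 averaged 277 ± 23.6 TPM and Atf4 266 ± 23.8 TPM, while Ddit3 (CHOP), the proapoptotic factor downstream of Atf4, averaged 40.4 ± 7.72 TPM and Trib3 19.1 ± 3.23 TPM. Ddit3 had 34.3, 38.8 and 55.8 TPM in DMSO, against 54.5, 33.1 and 27.2 TPM at baseline, so the baseline libraries spanned nearly the whole range.

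**Figure D2:**
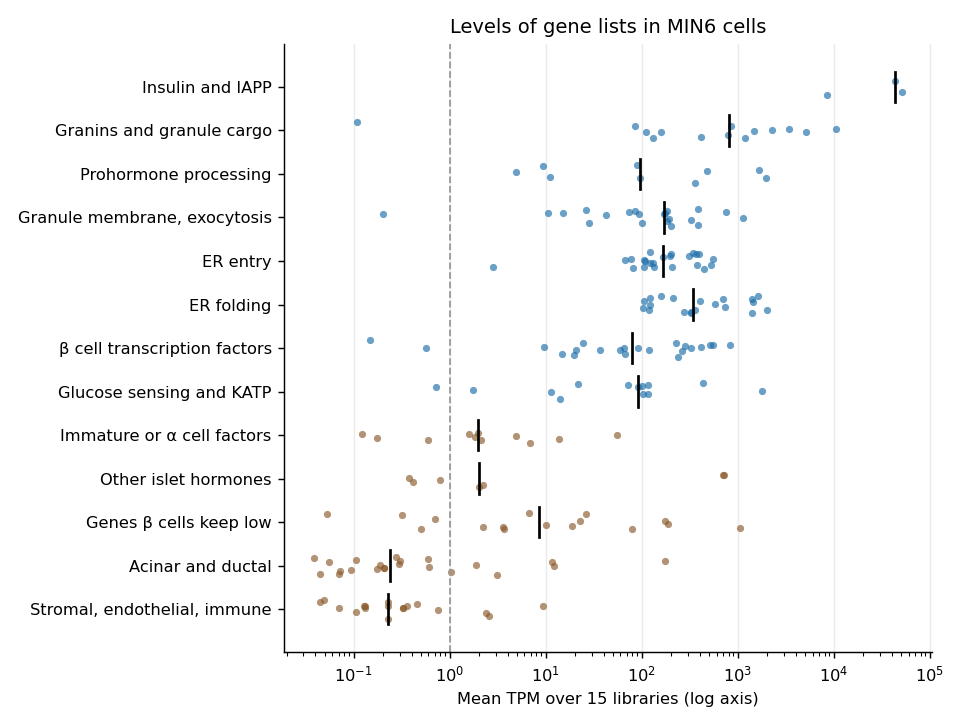
Mean TPM over the 15 libraries (x axis, log scale) of each member of 13 gene lists, with 1 point per gene, a bar at the list's median and a dashed line at 1 TPM. Lists of β cell function are blue and lists of genes of other cells or of immature cells are brown. The 20 ER folding genes all lie above 100 TPM, and the median of the 22 acinar and ductal markers is 0.241 TPM.

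The line expressed most of the factors that define β cells. Of 22 β cell transcription factors 20 averaged at least 1 TPM and 10 at least 100 TPM. Pdx1, the master regulator of β cells, averaged 825 ± 50.1 TPM, Neurod1 546 ± 51.3 TPM, Mafa, the late maturity factor, 516 ± 55.5 TPM, Isl1 416 ± 24.4 TPM, Pax6 324 ± 16.2 TPM, Nkx2-2 281 ± 16.6 TPM and Nkx6-1 265 ± 29.4 TPM. Pdx1 had 762, 812 and 919 TPM in DMSO, against 827, 896 and 833 TPM at baseline. Tcf7l2, a Wnt effector, was among the members under 1 TPM (0.149 TPM). Of 11 factors of immature or α cells 8 averaged at least 1 TPM, beside 13807 of all 24421 gene symbols. Their median was 1.96 TPM and none reached 100 TPM. Neurog3, which starts endocrine differentiation, averaged 0.176 TPM, while Pax4, an endocrine progenitor factor, averaged 55.8 ± 8.57 TPM.

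The glucose-sensing machinery was present, led by G6pc2, the islet glucose-6-phosphatase, with 1802 ± 95.4 TPM. The subunits of the ATP-sensitive K+ channel were Abcc8 (SUR1) with 430.4 ± 31.8 TPM and Kcnj11 (Kir6.2) with 103.1 to 131.4 TPM. The glucose transporter Slc2a2 (GLUT2) averaged 103.9 ± 10.7 TPM, close to Slc2a1 (GLUT1) with 117.2 ± 8.98 TPM. Hexokinase 1 (Hk1) averaged 21.6 ± 4.34 TPM. Of 13 voltage-gated Ca2+ channel genes 12 passed 1 TPM and none reached 100 TPM. Cacna1c, the pore of the main L-type channel of mouse β cells, averaged 53.6 ± 5.59 TPM and its relative Cacna1d 14.8 ± 2.30 TPM. Receptors included Glp1r, the GLP-1 receptor (378 ± 14.2 TPM), the fatty acid receptor Ffar1 (286 ± 23.9 TPM) and the adrenergic receptor Adra2a (179.7 ± 14.9 TPM), while Gcgr (0.727 TPM) and Gpr119 (0.0731 TPM) were under 1 TPM. Vdac1, the anion channel of the mitochondrial outer membrane, averaged 655 ± 21.9 TPM and had 616, 661 and 688 TPM in DMSO, against 618, 647 and 662 TPM at baseline.

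Of the 7 genes in the list of other islet hormones 4 averaged at least 1 TPM. Only Gcg and Ttr, which is not itself a hormone gene, were high. Gcg, the proglucagon gene of α cells (chr2:62474530-62483653, mm10), averaged 698 ± 63.4 TPM, and had 618, 705 and 828 TPM in DMSO, against 639, 613 and 683 TPM at baseline. Ttr, transthyretin, averaged 718 ± 59.1 TPM. Sst (2.02 TPM), Ppy (2.21 TPM), Ghrl (0.789 TPM), Gast (0.417 TPM) and Pyy (0.377 TPM) were far lower. Since these are bulk libraries, a few cells with much of a message and many cells with little of it cannot be told apart. The Gcg level stood beside an Irx2 level of 13.8 TPM, a factor of α cells.

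Of 16 genes that mature β cells keep low 12 averaged at least 1 TPM, beside 13807 of all 24421 gene symbols. Their median was 8.41 TPM, and 3 of them reached 100 TPM. Ldha, the lactate dehydrogenase subunit, averaged 1052 ± 92.9 TPM (917, 1096 and 1186 TPM in DMSO, and 936, 1060 and 1073 TPM at baseline), and the lactate transporters Slc16a3 (MCT4) and Slc16a1 (MCT1) 176 ± 15.4 and 25.98 ± 3.55 TPM. Igfbp4 averaged 187 ± 14.8 TPM and Maf 78.4 ± 10.97 TPM. Markers of other pancreatic cells were scarce. Of 22 acinar and ductal markers 6 averaged at least 1 TPM, and their summed level was 157, 209 and 235 TPM (lowest, median and highest) in DMSO, against 206 to 224 TPM at baseline. Most of that sum was 1 gene, the keratin Krt7 (176 ± 15.7 TPM), while the digestive enzymes Prss2 (0.0384 TPM), Amy2b (0.0547 TPM) and Cpa1 (0.187 TPM) and the duct factor Sox9 (0.121 TPM) were near 0. Of 18 stromal, endothelial and immune markers 3 averaged at least 1 TPM (Cd68 with 9.46, Col1a1 with 2.59 and Cd79a with 2.40 TPM), and the sum over the list was 8.49 to 28.5 TPM in DMSO, against 17.7 to 22.3 TPM at baseline. Defining genes such as Ptprc (0.229 TPM), Pecam1 (0.452 TPM) and Col3a1 (0.0445 TPM) were close to 0.

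Neuroendocrine genes were broadly on, with 15 of 18 at 1 TPM or more, among them Syp (298 ± 11.8 TPM), Map2 (219 ± 7.47 TPM), the neurofilament gene Nefl (205 ± 14.5 TPM) and tyrosine hydroxylase, Th (74.5 ± 9.42 TPM). Genes of proliferation were all expressed. Each of the 22 cell cycle genes averaged at least 1 TPM, led by Pcna (483 ± 21.98 TPM), Top2a (371 ± 17.4 TPM) and Mki67 (339 ± 40.1 TPM). Mki67 had 260, 332 and 392 TPM in DMSO, against 395, 314 and 348 TPM at baseline. Of the D cyclins Ccnd2 averaged 287 ± 20.7 TPM, Ccnd3 34.3 ± 3.28 TPM and Ccnd1 0.273 ± 0.321 TPM, and of their kinases Cdk4 averaged 316 ± 13.2 TPM and Cdk6 0.262 ± 0.362 TPM. The inhibitors Cdkn2c (473 ± 18.6 TPM) and Cdkn1b (438 ± 12.8 TPM) were abundant. Of 79 ribosomal protein genes 78 passed 1 TPM and 72 passed 100 TPM, and many have processed copies that make single values uncertain. All 13 glycolysis genes were above 1 TPM, of which Eno1 (5.61 ± 3.89 TPM) shares its reads with the copy Eno1b. Of 22 genes of glucose response and lipid synthesis 21 passed 1 TPM. Scd2, a fatty acid desaturase, averaged 1253 ± 58.8 TPM, while Txnip, a glucose-induced arrestin, averaged 29.2 ± 10.4 TPM. All 14 handling and oxidative stress genes passed 1 TPM, with Hspa8 at 1626 ± 85.3 and the metallothionein Mt1 at 949 ± 161 TPM. Of the 22 genes in the imprinted list, which leaves out Igf2, 15 did. Peg3 (783 ± 70.6 TPM) and Nnat (666 ± 94.2 TPM) led that list, while H19, the RNA next to Igf2, was at 0.237 ± 0.529 TPM. All 18 circadian clock genes, all 20 genes of cAMP signaling and 34 of 39 immediate-early genes averaged at least 1 TPM, as did 11 of the 13 noncoding RNAs found in the table. Egr1 averaged 139 ± 33.01 TPM, Fos 30.4 ± 12.8 TPM and Npas4, which responds to Ca2+ entry, 11.3 ± 3.54 TPM. Prkar1a, a regulatory subunit of protein kinase A, was the most abundant cAMP gene (1460 ± 55.4 TPM) and Nr1d2 the most abundant clock gene (110.8 ± 9.46 TPM).

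The share of sequencing given to secretory products overlapped between vehicle and baseline. Ins1 and Ins2 together took 1.25%, 1.40% and 1.98% of counts (lowest, median and highest) in DMSO, against 1.28%, 1.54% and 1.36% at baseline, so that the groups overlapped. Their means were 1.44% ± 0.208 in DMSO (SD, n = 12) and 1.39% ± 0.137 at baseline (SD, n = 3), a difference of 0.052 percentage points (exact permutation test, two-sided, with the baseline label permuted within each experiment, p = 0.72, adjusted p = 0.792). The 26 hormone, cargo and processing genes took 6.04% ± 0.374 in DMSO and 5.92% ± 0.323 at baseline (exact p = 0.52, adjusted p = 0.78). Igf2 is among them and ranked above Iapp and Ins2 by CPM, so it weighs heavily on that share. The 43 ER entry and folding genes took 1.84% ± 0.0627 in DMSO and 1.83% ± 0.0124 at baseline (exact p = 0.792, adjusted p = 0.792), and the 79 ribosomal protein genes 1.15% ± 0.0705 and 1.12% ± 0.0348 in the same order (exact p = 0.416, adjusted p = 0.78). The 10 most abundant genes took 8.90% ± 0.289 in DMSO and 8.96% ± 0.263 at baseline (exact p = 0.44, adjusted p = 0.78). The ratio of Ins2 to Ins1 counts was 3.42 ± 0.264 in DMSO and 3.48 ± 0.171 at baseline (exact p = 0.408, adjusted p = 0.78), or 6.18 ± 0.441 per length over all 15 libraries. These 6 tests were adjusted together, and the arrangements of the labels allow no p under 0.008. The 95% Wilson intervals of the shares were at most 0.0115 percentage points to either side. They cover counting error only, as reads carried no molecular identifiers, and are far narrower than the spread between libraries. Per length, insulin made up 6.02% ± 0.683 of all TPM, the 26 hormone, cargo and processing genes 13.5% ± 0.868, the ribosomal proteins 3.88% ± 0.151 and the ER genes 1.76% ± 0.0514.

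**Figure D3:**
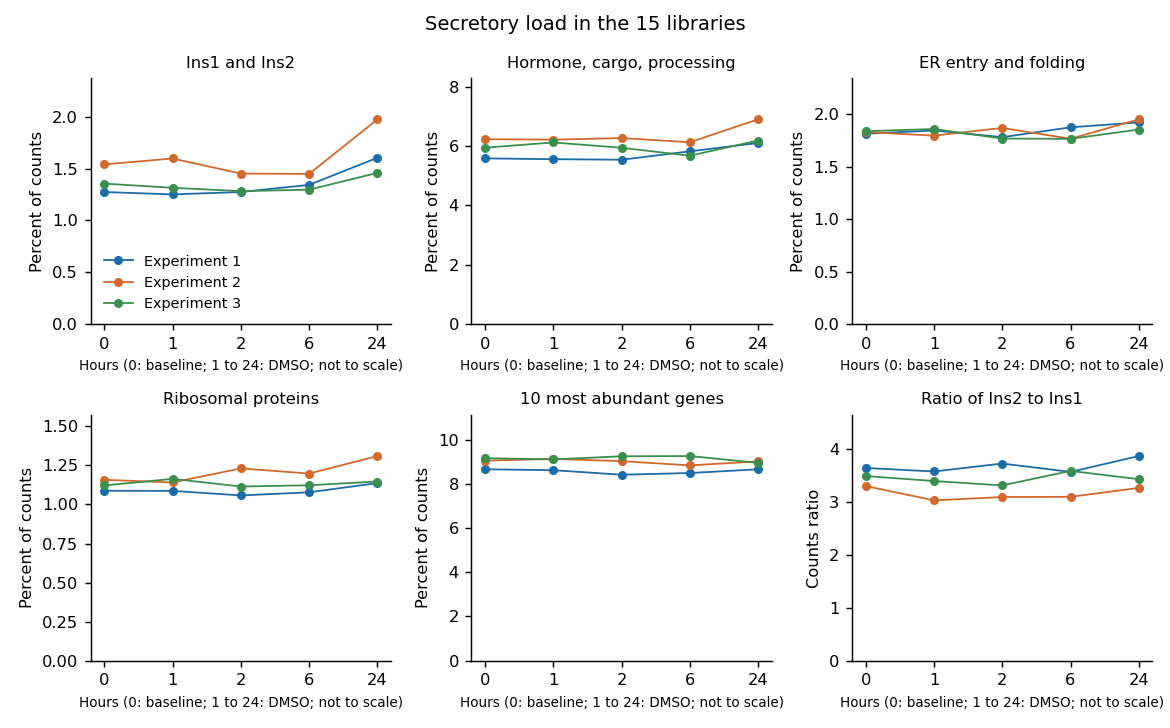
Percent of counts taken by 5 groups of genes, and the ratio of Ins2 to Ins1 counts, in each library (y axes from 0) at baseline (0 h) and 1, 2, 6 and 24 h of DMSO, with 1 line per experiment and hours not to scale. The insulin share is highest at 24 h in each experiment (1.61%, 1.98% and 1.46%), and the lines of the experiments lie apart from each other by about as much as the times do.

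In the pooled comparison no gene passed the threshold. With the 4 DMSO groups averaged against baseline, edgeR's quasi-likelihood test called 0 of 16437 genes (0%) at an adjusted p below 0.05, where 221 had an unadjusted p below 0.05, and DESeq2 called 0. With the experiment as a block edgeR called 0, with 371 below an unadjusted 0.05, and DESeq2 called 3. The absence of calls does not show that levels were equal. The median log2 fold change was -0.01 over all genes tested, and the medians of the 28 lists lay between -0.21 (stromal, endothelial and immune markers, most of them near 0 TPM) and 0.15 (other islet hormones). The 3 hormone genes had log2 fold changes of 0.04 ± 0.08 for Ins2, 0.02 ± 0.06 for Iapp and 0.08 ± 0.13 for Ins1 (± SE). Hspa5, Ddit3, Mki67 and Txnip had values of 0.03 ± 0.05, 0.12 ± 0.18, -0.06 ± 0.08 and -0.01 ± 0.30.

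The genes of lowest p in that comparison are given though none was called (edgeR, adjusted p = 0.9998 each). They were picked for low p in this same comparison. The separation of the groups in them follows in part from that choice and is no added support. How many of all genes tested separate as fully was not counted. Ankrd13b, an ankyrin repeat gene of endosomes, had 23.3, 27.3 and 29.4 CPM (lowest, median and highest, scaled by TMM) in DMSO, against 35.1, 32.2 and 32.9 CPM at baseline. All 12 DMSO libraries lay below the 3 baseline libraries, and the log2 fold change was -0.33 ± 0.07. Tmem223, a mitochondrial membrane protein gene, had 5.74, 11.4 and 13.2 CPM in DMSO, against 15.9, 14.7 and 13.2 CPM at baseline, with the same order (log2 fold change -0.47 ± 0.14). Det1 (-0.44 ± 0.12), Dact2 (-0.30 ± 0.09), A430105I19Rik (-0.32 ± 0.10), Rnft2 (-0.26 ± 0.08) and 2210019I11Rik (-0.73 ± 0.23, at 2.28 to 3.12 CPM in DMSO) also had 12 of 12 DMSO libraries below baseline, and Adgrg1, an adhesion receptor, 11 of 12 (-0.17 ± 0.05). On the other side Gpatch1 had 26.1, 28.8 and 35.4 CPM in DMSO, against 20.1, 25.3 and 25.0 CPM at baseline (0.31 ± 0.09), and 1110059G10Rik (0.38 ± 0.11), Rpusd2 (0.27 ± 0.09) and Trak2 (0.13 ± 0.05) likewise had 12 of 12 above. Dpcd (0.46 ± 0.14) and Lmtk2 (0.14 ± 0.05) had 11 of 12 above and Tmem208 (0.33 ± 0.11) 10 of 12. Crem, a cAMP-responsive repressor, had 32.6, 37.2 and 62.5 CPM in DMSO, against 35.01, 29.3 and 34.99 CPM at baseline, with 9 of 12 above (0.32 ± 0.10). When the DMSO libraries of an experiment were summed and set against its baseline with the experiment as a block, 47 genes were called (19 higher and 28 lower), among them Crem, Lmtk2, Ankrd13b, A430105I19Rik, Dact2 and Adgrg1. That form sums 4 libraries into 1 and takes no account of the spread between DMSO times.

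**Figure D4:**
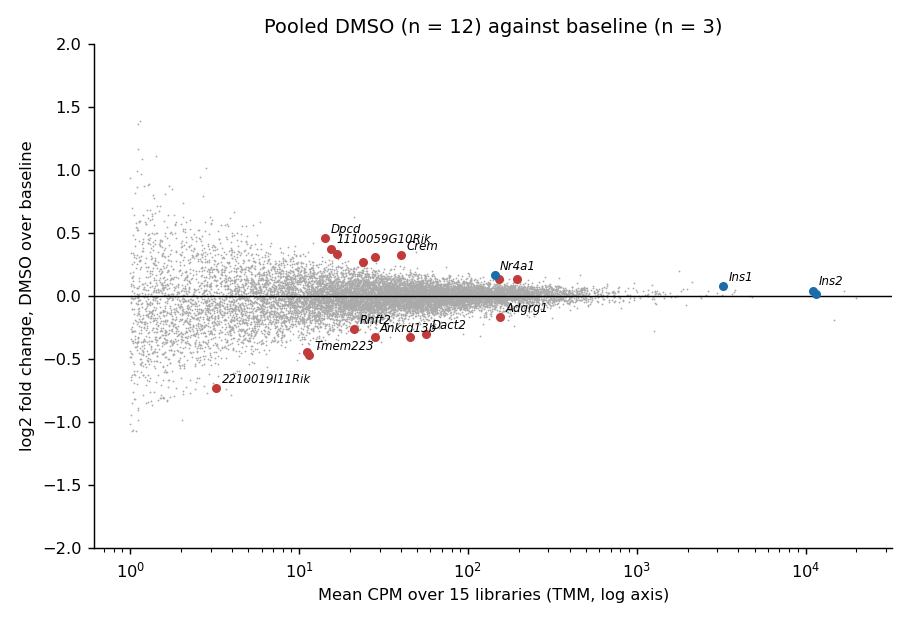
Log2 fold change of pooled DMSO (n = 12) over baseline (n = 3) against mean CPM (log axis) for each tested gene with a mean of at least 1 CPM. The genes of lowest p are red (most named) and Ins1, Ins2, Iapp and Nr4a1 are blue. No gene was called, and the spread narrows toward high counts, where Ins2 sits at 0.04.

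By time, the DMSO groups were each set against baseline. Without the block edgeR called 0 genes at 1 h (0.663% of genes had an unadjusted p below 0.05), 0 at 2 h (8.27%), 0 at 6 h (0.687%) and 0 at 24 h (2.25%), where DESeq2 called 2, 17, 0 and 3. The spread between libraries of a group was large (common dispersion 0.0884, a coefficient of variation of 29.7%). It fell to 0.0462 (21.5%) with the experiment, which the design pairs, as a block. With the block 7 genes, or 0.0426% of those tested, were called at 1 h, all higher in DMSO, and 0 at 2, 6 and 24 h, where DESeq2 with the block called 16, 307, 1 and 53 at 1, 2, 6 and 24 h. A test that the 4 DMSO times were equal called 0 genes without the block (894 with an unadjusted p below 0.05, and 38 by DESeq2) and 9 genes, or 0.0548%, with it. That share was 0.623% without DMSO 2 h replicate 1 and 0.23% without DMSO 2 h replicate 2. The calls described next are those of the fit with the block.

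Nr4a1 and Nr4a2, orphan nuclear receptors and classic immediate-early genes, had the lowest p at 1 h. Nr4a1 (chr15:101266846-101274794, mm10), at 0, 1, 2, 6 and 24 h, had 163, 416, 147, 162 and 113.5 CPM in experiment 1. It had 75.4, 203, 69.4, 63.7 and 66.7 CPM in experiment 2, and 115.1, 279, 105.2, 107.4 and 74.8 CPM in experiment 3. The 1 h library was the highest of its experiment in all 3, at 2.42 to 2.69 times its own baseline, and by 2 h the level was no longer above baseline. The log2 fold change at 1 h was 1.35 ± 0.09 (edgeR with the block, adjusted p = 6.0e-07). Nr4a2 (chr2:57107226-57124003) had 55.9, 116.3, 57.7, 55.8 and 50.7 CPM in experiment 1, 25.7, 57.6, 35.6, 28.4 and 26.3 CPM in experiment 2, and 34.7, 80.2, 42.9, 40.1 and 32.5 CPM in experiment 3. Its log2 fold change at 1 h was 1.14 ± 0.08 (edgeR, adjusted p = 2.65e-06). In both genes the lowest 1 h value lay above the highest 0 h value. Both calls held when any 1 of the 15 libraries was left out. Nr4a3, the remaining family member, was 2.27 to 2.37 times its baseline at 1 h but was not called (log2 fold change 1.23 ± 0.22, adjusted p = 0.0995).

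The other genes called at 1 h had smaller changes. Fam46a (listed as Tent5a in RefSeq), a poly(A) polymerase gene, had 693, 476 and 601 CPM in the DMSO 1 h libraries of experiments 1 to 3, against 509, 328 and 404 CPM at baseline (log2 fold change 0.52 ± 0.06, edgeR adjusted p = 3.94e-04). Fosl2, an AP-1 subunit, had 159, 116.3 and 146 CPM, against 99.8, 79.7 and 93.8 CPM at baseline (0.62 ± 0.08, adjusted p = 0.00503). Sik1, a kinase induced by cAMP that restrains CREB coactivators, had 168, 92.5 and 144 CPM, against 100.1, 60.9 and 88.6 CPM at baseline (0.69 ± 0.11, adjusted p = 0.0307). Per1, a clock gene with a cAMP response element, had 146, 111.4 and 123.9 CPM, against 99.95, 80.1 and 95.9 CPM (0.46 ± 0.07, adjusted p = 0.0142), and Midn, which encodes the nuclear protein midnolin, 206, 166 and 188 CPM, against 150, 132 and 142 CPM (0.40 ± 0.06, adjusted p = 0.0305). In Fosl2 and Midn the 3 libraries at 1 h lay above all 3 baseline libraries, as they did in Per1. Of the 39 immediate-early genes 3 were called higher at 1 h (Nr4a1, Nr4a2 and Fosl2), 33 had a log2 fold change above 0 and the median was 0.26, beside 0.00 over all genes tested and 8356 of 16437 above 0. Of the 20 cAMP genes 2 were called (Sik1 and Per1), with a median of 0.05. Fos had a log2 fold change of 0.76 ± 0.16 (adjusted p = 0.261) and was not called.

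Fam46a kept its call at 1 h without any 1 library, Fosl2 without 14 of 15, Per1 and Midn without 10, and Sik1 without 9. Fosl2 lost it without DMSO 1 h replicate 1 (log2 fold change 0.56). Per1 lost it without a baseline library (0.40 to 0.50), or without DMSO 1 h replicate 1 (0.47) or 2 (0.42), and Midn without a baseline library, DMSO 1 h replicate 1 or DMSO 1 h replicate 3 (0.34 to 0.42). Sik1 lost it without a baseline library, DMSO 1 h replicate 1, DMSO 1 h replicate 3 or DMSO 24 h replicate 1 (0.62 to 0.71). Without the 3 libraries of high intergenic share, which include baseline and DMSO 1 h of experiment 1, 2 genes (Nr4a1 and Nr4a2) were called at 1 h, while Fam46a, Fosl2, Per1, Midn and Sik1 had log2 fold changes of 0.55, 0.59, 0.42, 0.36 and 0.65. Of these promoters (RefSeq, where 8 of 9 genes searched matched and Sik1 did not), the cAMP response element core of the Nr4a1 and Nr4a2 lines above was found once in each of the Per1 windows and in 1 of the Midn windows, and not in those of Fosl2 and Fam46a.

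**Figure D5:**
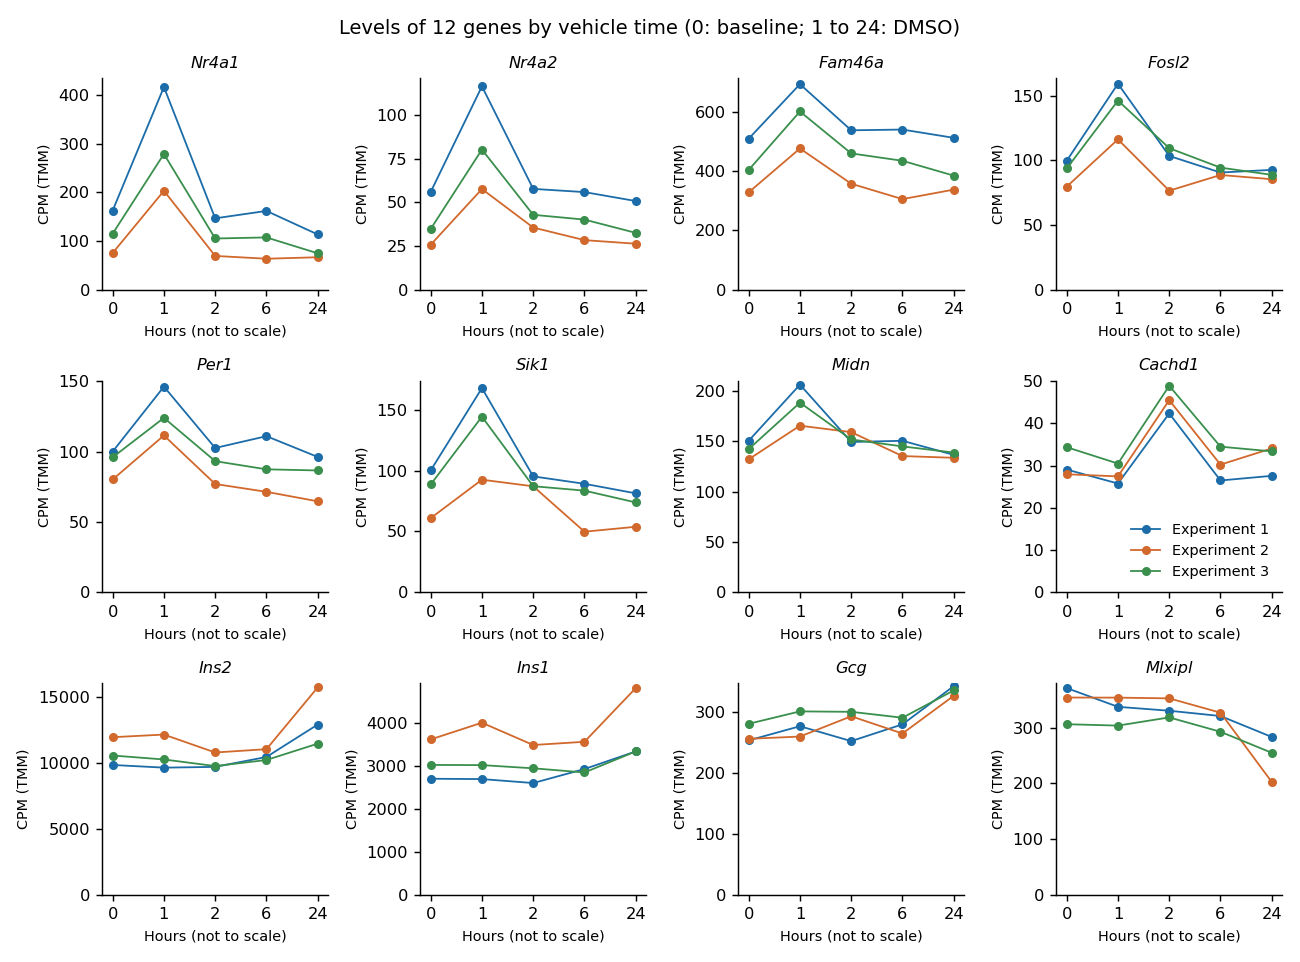
CPM (scaled by TMM, y axes from 0) of 12 genes at baseline (0 h) and 1, 2, 6 and 24 h of DMSO, hours not to scale, with 1 line per experiment. Nr4a1 to Midn peak at 1 h in all 3 experiments, Cachd1 at 2 h, and Ins2, Ins1 and Gcg are highest at 24 h, where Mlxipl is lowest.

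The 9 genes that differed between DMSO times were those 7 together with Cachd1 and Ins2. Nr4a1 (edgeR with the block, adjusted p = 9.5e-09) and Nr4a2 (2.29e-06) again stood first. Cachd1, which encodes a protein related to the α2δ subunits of Ca2+ channels (chr4:100776679-101003748, mm10), was high at 2 h alone. Its 2 h libraries had 42.4, 45.5 and 48.9 CPM, against 25.8 to 34.5 CPM in the 12 others, with no overlap (adjusted p = 0.00668). The 3 DMSO 2 h libraries also had the lowest depths of the DMSO groups, and 1 of them the missing genes described above. Whether depth or that library shaped other 2 h values was not tested, and Cachd1 kept its call when any 1 library was left out, though not without the 3 libraries of high intergenic share (adjusted p = 0.187). At 2 h against baseline the count of calls itself turned on single libraries and on the tool. With the block edgeR called 0 genes, but 598 (154 higher and 444 lower) without DMSO 2 h replicate 1. It called 7 (3 higher and 4 lower) without DMSO 2 h replicate 2. Without all 3 libraries of high intergenic share it called 6, all lower. With no block, edgeR called 617 (135 higher and 482 lower) without DMSO 2 h replicate 1. It called 278 (28 higher and 250 lower) without the 3 libraries. DESeq2 with the block called 307 (155 higher and 152 lower). The larger edgeR sets were thus mostly lower and the DESeq2 set was balanced. As edgeR called 0 with all 15 libraries, no direction is read from it.

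Ins2 was highest at 24 h of DMSO in each experiment. Its 24 h libraries had 12910, 15730 and 11460 CPM, against 9844, 11950 and 10560 CPM at baseline and 9640 to 12150 CPM in the other DMSO libraries. These are 1.31, 1.32 and 1.09 times the baseline of the same experiment, and the difference between DMSO times was called (edgeR with the block, adjusted p = 0.0101). That call was lost without DMSO 24 h replicate 1 (adjusted p = 0.281) or replicate 2 (0.175), and without the 3 libraries of high intergenic share (0.187). Against baseline no gene was called at 24 h, where Ins2 had a log2 fold change of 0.30 ± 0.05, Ins1 of 0.29 ± 0.05 and Gcg of 0.35 ± 0.06 (adjusted p = 0.221 each). DESeq2 with the block called 53 genes at 24 h, these 3 included. Gcg had 343, 327 and 336 CPM at 24 h, against 254, 256 and 281 CPM at baseline, and its 24 h libraries lay above all the other libraries of the set. Rps21, a ribosomal protein gene, had a log2 fold change of 0.42 ± 0.08. Mlxipl, which encodes the glucose-responsive factor ChREBP, had 283, 202 and 255 CPM at 24 h, against 371, 354 and 306 CPM at baseline (-0.47 ± 0.09), and Insrr, an insulin receptor relative, had a log2 fold change of -0.45 ± 0.09. None of these passed edgeR's threshold, at an adjusted p of 0.221. At 24 h all 20 ER folding genes and 73 of 78 ribosomal protein genes had a log2 fold change above 0, with medians of 0.11 and 0.12, beside 0.01 and 8671 of 16437 over all genes, and none of them was called. The library with the lowest intronic and Malat1 values is 1 of the 3 at 24 h. Without it the log2 fold changes were 0.24 for Ins2, 0.23 for Ins1, 0.35 for Gcg and -0.32 for Mlxipl. The counts over the ER folding and ribosomal lists were not repeated without that library. The ribosomal share of counts was 1.14%, 1.31% and 1.15% at 24 h in experiments 1 to 3, against 1.09%, 1.16% and 1.12% at baseline. The share of ER entry and folding genes was 1.923%, 1.952% and 1.855%, against 1.815%, 1.831% and 1.839%. Without DMSO 2 h replicate 2, the library with missing genes, 26 genes were called at 24 h, Ins2 among them.

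With all 15 libraries more genes differed between experiments than between vehicle and baseline. The 2 tests rest on different numbers of libraries (5 in each experiment, against 12 and 3), and the order turned on single libraries. Without the 3 libraries of high intergenic share 15 genes were called between experiments, against 278 at 2 h without the block and 6 with it. Without DMSO 2 h replicate 1 the count was 172, against 617 at 2 h without the block and 598 with it. A test of the experiment number, with the group in the model, called 447 genes, or 2.72% of those tested. Of these 243 were highest in experiment 2, 96 in experiment 3 and the remainder in experiment 1, and 260 were lowest in experiment 1. The differences were small: the median of the largest log2 difference was 0.28 for called genes, beside 0.21 over all genes tested, and 7 called genes exceeded 1 log2 unit. The 3 hormone genes were all highest in experiment 2. Ins1 averaged 2849 ± 296 CPM in experiment 1, 3893 ± 549 in experiment 2 and 3031 ± 184 in experiment 3 (SD, 5 libraries each, edgeR adjusted p = 5.03e-05), and every library of experiment 2 exceeded all others. Ins2 averaged 10510 ± 1382, 12330 ± 1985 and 10450 ± 631 CPM, with overlapping libraries (adjusted p = 0.00858).

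Of 39 immediate-early genes 7 were called, against 2.72% of all genes tested, and 6 of the 7 were highest in experiment 1 (Fos, Fosl2, Egr1, Nr4a1, Nr4a2 and Dusp1), and the exception was Jund, highest in experiment 2. Nr4a1 averaged 200.1 ± 122.4, 95.7 ± 60.2 and 136 ± 81.1 CPM in experiments 1 to 3 (edgeR adjusted p = 2.33e-06), where each SD includes the 1 h peak. Egr1, an immediate-early zinc finger factor, averaged 193 ± 15.1, 176 ± 9.06 and 113.6 ± 12.6 CPM (adjusted p = 2.69e-06), and every library of experiment 3 lay below the others. Sv2b, a granule and synaptic vesicle glycoprotein, averaged 114.7 ± 4.62, 139 ± 6.37 and 93.1 ± 5.77 CPM, with no overlap between experiments (adjusted p = 1.41e-05). Crtac1 (70.8 ± 3.72, 94.2 ± 1.01 and 99.2 ± 6.55 CPM, adjusted p = 1.26e-04) and the ER oxidase Ero1l (338 ± 22.4, 319 ± 20.4 and 405 ± 21.2 CPM, adjusted p = 1.26e-04) were among the genes of lowest p, as was Fam46a.

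Called genes of other lists are read against the same 2.72%. Of the 13 granins and cargo genes tested 8 were called, 5 of them highest in experiment 2 (Chga, Scg2, Pcsk1n, Npy and Resp18). Of 13 glycolysis genes 8 were called, 5 highest in experiment 2 and 3 in experiment 3, and of 78 ribosomal protein genes 14 were called, all highest in experiment 2. Slc2a2 averaged 112.4 ± 6.24 CPM in experiment 2 and 88.6 ± 2.09 CPM in experiment 3, whose libraries all lay below the others (edgeR adjusted p = 0.00361), and Pdx1 averaged 379.5 ± 16.1, 431 ± 36.9 and 395 ± 23.1 CPM in experiments 1 to 3 (adjusted p = 0.0254). No gene of the calcium channel, cyclin, other islet hormone, acinar and ductal, or stromal list was called. Experiment 1 holds all 3 libraries of high intergenic share, so experiment and intergenic share cannot be fully told apart. Given that share as a covariate 80 genes were called, and without those libraries 15 were, in which Crtac1 had an adjusted p of 0.101. The count also turned on single libraries: it was 1217 without DMSO 2 h replicate 2, and 137 to 265 without any 1 of the baseline libraries, the DMSO 24 h libraries, DMSO 1 h replicate 1, DMSO 2 h replicate 1, or DMSO 6 h replicates 2 and 3.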

How the data were processed

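RNA-seq was done on MIN6 cells with paired reads on an Illumina NovaSeq. The authors deposited counts of read pairs per gene, made with STAR (2.5.2b in the submitters' processing notes, while the methods name a later version) and featureCounts (Subread 1.5.1) on mm10, strand-aware and with unique pairs only. The labels describe an rRNA removal kit and the methods an mRNA kit, which bears on the noncoding RNAs. The table also holds 78 columns of log2 FPKM and TPM values, which were left aside. TPM was computed from the counts and the deposited exon length, with no correction for fragment length, so short RNAs are least certain.

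Genes were filtered with filterByExpr and tested by edgeR 4.0.16 (R 4.3.3, limma 3.58.1, TMM, quasi-likelihood, group means), at a Benjamini-Hochberg adjusted p below 0.05 over all 16437 genes tested. DESeq2 1.42.0, DESeq2 size factors, no filter, all 39 libraries, the experiment as a block, intergenic share and left-out libraries were alternatives. The edgeR test of DMSO 1 h against baseline, with and without the block, was tried on simulated counts with 200 genes changed. The simulated spread was smaller than that of the data, so the trial does not show what the test could detect here. Shares were tested by exact permutation. Python 3.11.15, numpy 2.4.6, pandas 2.3.3, scipy 1.17.1 and matplotlib 3.10.9 did the rest.

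The replicate number is the experiment of 13 libraries by the design text, so it pairs samples. Of the 30 pairs of libraries from the same experiment and different groups 10 had deviations from their group means correlated above 0.1 (median 0.06), as did 10 of 60 pairs from different experiments (median -0.02). No 2 libraries of the same group agreed within sampling noise, and pairs from different groups were not checked for this.

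The genes named are the 20 of highest mean TPM, the 4 highest of each of 28 lists, markers of other cells, up to 8 genes of lowest p in each direction (8 for times and experiments), and a set of β cell and stress genes. Other genes named, among them list members under 1 TPM, Nr4a3 and the genes at 24 h, were chosen after their values were seen. Members and lists were chosen with earlier results of these data known. Some genes of these lists are not reported here.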

Additional observations from a re-analysis of the deposited data

Results flagged for a closer look

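Levels of 9 genes differed between the 4 DMSO times by edgeR's quasi-likelihood test with the experiment as a block, which tests the difference between times itself. The adjusted p was 9.5e-09 for Nr4a1, 2.29e-06 for Nr4a2, 0.000724 for Fam46a, 0.00109 for Per1, 0.00218 for Sik1, 0.00304 for Fosl2 and 0.0214 for Midn, which were all highest at 1 h in each of the 3 experiments. It was 0.00668 for Cachd1, highest at 2 h in each, and 0.0101 for Ins2, highest at 24 h in each. Of these Nr4a1, Nr4a2, Fam46a, Per1 and Cachd1 kept the call without any 1 of the 15 libraries, Fosl2 and Sik1 without 14 (adjusted p of 0.0665 and 0.0549 without DMSO 1 h replicate 1), Ins2 without 13 and Midn without 7. Without the 3 libraries of high intergenic share 3 genes were called between times with the block. Nr4a1 (adjusted p = 0.00356) and Nr4a2 (0.00618) were called there, while Fam46a and Per1 (0.0733 each), Sik1, Fosl2, Cachd1 and Ins2 (0.187 each) and Midn (0.19) were not. Why they differed was not tested.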

How the results depend on the processing

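With the replicate block 7 genes were called at 1 h and 0.0548% of those tested between DMSO times, and with intergenic share added to the block 6 and 0.0487%. With all 15 libraries and edgeR the block changed no other count, at 0 in the pooled, 2 h, 6 h and 24 h comparisons. Without a filter on low counts 3 genes were called at 1 h, 1 at 2 h, 0.0348% between times and 1209 between experiments. DESeq2 called 2 at 1 h, 17 at 2 h, 3 at 24 h, 0.231% between times and 1903 between experiments. With all 39 libraries in the fit 2 were called at 2 h, 0.0184% between times and 2767 between experiments. Without the libraries of high intergenic share 278 were called at 2 h, 0.0389% between times and 15 between experiments, and with that share as a covariate 80 between experiments. DMSO summed per experiment with the block gave 47 in the pooled comparison. Leaving out each library gave 0 to 2 pooled, 0 to 1 at 1 h, 0 to 617 at 2 h, 0 to 0 at 6 h and 24 h, 0% to 0.605% between times and 137 to 1217 between experiments. Further alternatives, chosen after seeing the data, kept the block. DESeq2 then called 3 genes pooled, 16 at 1 h, 307 at 2 h, 1 at 6 h, 53 at 24 h and 2.63% between times. Without the libraries of high intergenic share 2 were called at 1 h, 6 at 2 h and 0.0194% between times, and leaving out each library gave 3 to 12 at 1 h (4 without each baseline library) and 0.0351% to 0.623% between times, with 0.23% without DMSO 2 h replicate 2. The cause of these shifts was not tested.

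The share differences in percentage points changed sign in some settings, with none called in any. Measured in TPM the ER difference was -0.0034 and that of the 10 most abundant genes 0.415. Leaving out each library gave -0.00583 to 0.128 for insulin, -0.0491 to 0.273 for hormone, cargo and processing genes, -0.209 to 0.0417 for the 10 most abundant genes and -0.153 to 0.0175 for the ratio of Ins2 to Ins1. The number of expressed genes was 11477 at 5 TPM, 14803 at 0.5 TPM and 13134 at 1 CPM.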
